A study of Mus musculus with 12 samples.

Results

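The response of bone marrow-derived dendritic cells (BMDCs) labelled Pde5 knockout to lipopolysaccharide (LPS), a cell wall component of gram-negative bacteria, was examined across the transcriptome. The members were taken by label and by no measured value. The 2 libraries labelled LPS-treated knockout were set against the 2 labelled unstimulated knockout, 4 of the 12 mouse RNA-seq libraries of the series. Of 32190 gene symbols, 13072 held enough counts for a test. LPS was given at 200 ng/ml for 12 h, and the labels of all 8 BMDC libraries give a time of 9 days. Beside these libraries stood 2 of LPS-treated and 2 of unstimulated wild-type (WT) BMDCs, and the remaining 4 libraries, of dendritic cells (DCs) from tumors, were not used. The labels call the cells immune cells and give Pde5-/- as the genotype. They name neither the strain, the age nor the culture cytokines, nor the part of the gene that was deleted. Nor is it said if a group's libraries stem from different mice or cultures, so the p-values cover no more than the spread among the libraries, which may be technical.

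LPS is sensed by Toll-like receptor 4 (TLR4) with its co-receptors. The adaptor MyD88 then drives NF-kB and the inflammatory cytokines, and the adaptor TRIF drives IRF3 and interferon-beta, which in turn induces interferon-stimulated genes through STAT transcription factors. A DC that matures in this way raises its costimulatory ligands and the chemokine receptor Ccr7, and loses much of its uptake machinery. The enzyme PDE5, encoded by Pde5a, degrades cGMP, the second messenger made when nitric oxide or natriuretic peptides activate guanylyl cyclases.

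Levels are given in CPM (counts scaled to the TMM-adjusted library size), group values as means ± SD with n = 2 libraries, and changes as log2 fold changes with their standard error (SE) or 95% confidence interval. A gene was called at a Benjamini-Hochberg adjusted p under 0.05 in edgeR's quasi-likelihood test, fitted over all 8 BMDC libraries. In WT, genes said to rise or fall were called in this way. In gene lists, counts of higher and lower members in the knockout label are at an unadjusted p under 0.05, a looser threshold. The counts of the knockout label and of WT are therefore not like for like. Library totals ranged from 16.1 to 19.7 M counts. Pde5a itself did not separate the genotype labels. It had 22 and 43 counts in the LPS-treated and 47 and 61 counts in the unstimulated knockout-labelled libraries, against 52 and 20 counts in LPS-treated and 55 and 37 counts in unstimulated WT libraries. A count over the whole gene does not check the loss of a few exons, so the genotype is given as labelled throughout. DC markers were high in every library. Zbtb46, a transcription factor of conventional DCs, had 246 and 267 CPM in LPS-treated and 231 and 182 CPM in unstimulated knockout-labelled libraries, and Flt3, a growth factor receptor of DCs, had 466 and 483 CPM with LPS and 421 and 403 CPM without. The T cell marker Cd3d reached at most 0.357 CPM in these 4 libraries, and Lck, the highest of 5 T and NK cell markers, at most 3.15 CPM. Ly6g, a defining marker of neutrophils, was at 0 in all 4, but other neutrophil markers were not. The sum of 6 such markers was 52.3 and 41.8 CPM in LPS-treated and 48.6 and 58.9 CPM in unstimulated knockout-labelled libraries. Among them, S100a8 lay at 11 to 13.7 CPM and Ngp at 13.1 to 18 CPM.

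For genes that rose with LPS in WT, the libraries labelled unstimulated knockout lay nearer to LPS-treated than to unstimulated WT libraries. The 958 genes that rose more than 2-fold in WT had a median log2 CPM of 4.976 and 5.126 in LPS-treated and 4.997 and 4.422 in unstimulated knockout-labelled libraries, against 5.128 and 4.878 in LPS-treated and 2.889 and 2.859 in unstimulated WT libraries. The 963 that fell more than 2-fold in WT had medians of 2.541 and 2.337 in LPS-treated and 2.945 and 3.418 in unstimulated knockout-labelled libraries, against 2.384 and 2.563 in LPS-treated and 3.884 and 4.096 in unstimulated WT libraries. Unstimulated replicate 1 thus lay nearer to LPS-treated libraries in both sets, while replicate 2 lay further off, and nearer to the first unstimulated WT library for the genes that fell. By their medians, the genes that rose were not at the level of unstimulated WT cells in unstimulated knockout-labelled libraries. Single genes that rose, such as Ido1 and Ido2, given below, were near that level, as was Egr1, which fell in WT. The reason was not tested, so each result is given as one between libraries so labelled. Il1b, the cytokine IL-1 beta (chr2:129364569-129371164, GRCm38), had 625 and 606 CPM in LPS-treated and 691 and 454 CPM in unstimulated knockout-labelled libraries. In WT cells it had 630.1 and 707 CPM with LPS and 41.6 and 37.9 CPM without. The groups of the knockout label overlapped, those of WT did not, and all 4 knockout-labelled libraries lay above both unstimulated WT libraries. Across the 13072 genes, the Pearson correlation of log2 CPM between LPS-treated and unstimulated knockout-labelled libraries was 0.97 to 0.986 (4 pairs of libraries). Between unstimulated knockout-labelled and LPS-treated WT libraries it was 0.975 to 0.986, between unstimulated knockout-labelled and unstimulated WT libraries 0.939 to 0.971, and between LPS-treated and unstimulated WT libraries 0.924 to 0.946. On the first principal component, which held 63.4% of the variance, the LPS-treated knockout-labelled libraries scored 36.3 and 40.7 and the unstimulated ones 19.1 and -12.2. LPS-treated WT libraries scored 34.4 and 24.9 and unstimulated WT libraries -66.6 and -76.6. Without stimulation, 2357 genes (18%) passed between the knockout label and WT, 1575 of them higher (12%) and 782 lower (5.98%), and with scaling by library size alone the split was 1282 higher and 1301 lower. That count was 593 without unstimulated knockout-labelled replicate 1 and 861 without unstimulated WT replicate 2.

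**Figure D1:**
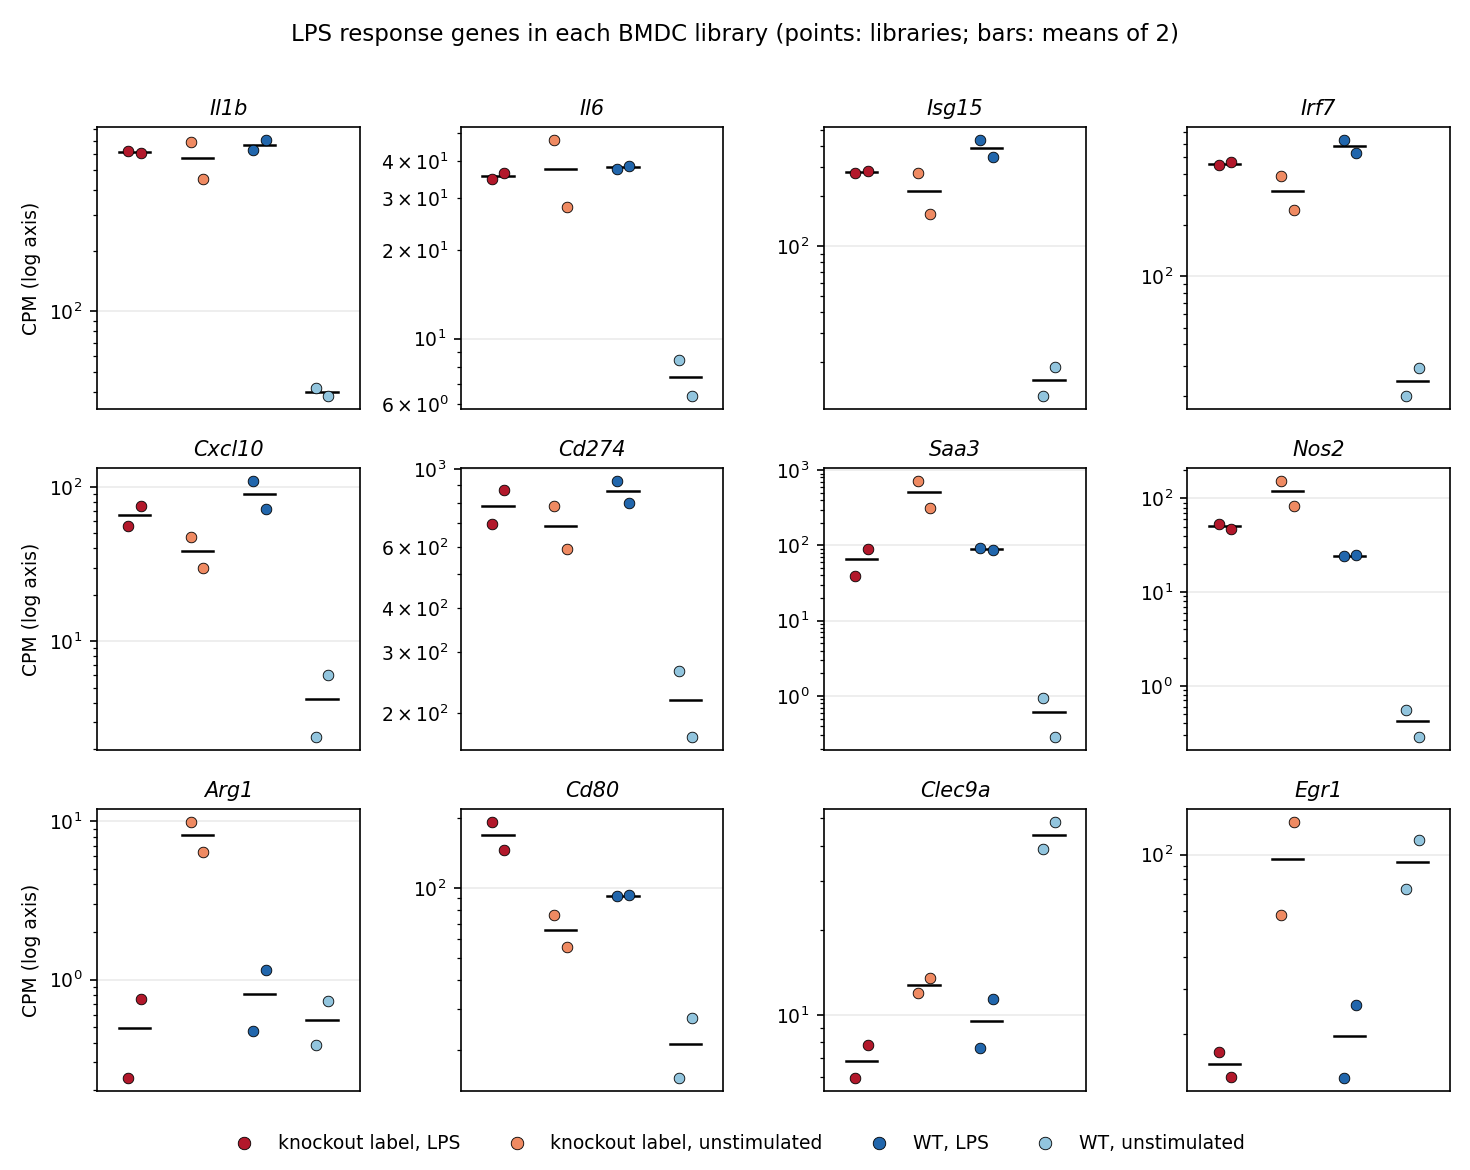
CPM of 12 genes in each BMDC library (log axes); points are libraries, bars are means of 2, and the groups run from LPS-treated and unstimulated knockout label to LPS-treated and unstimulated WT. Il1b, Il6, Isg15, Irf7, Cxcl10 and Cd274 stand high in all but the unstimulated WT libraries, while Saa3, Nos2 and Arg1 are highest in the libraries labelled unstimulated knockout.

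Against this baseline, 0 genes (0%) passed for LPS in the knockout label in edgeR, and the smallest Benjamini-Hochberg adjusted p was 0.0502, shared by 20 genes. The test therefore stopped at its threshold and did not show that levels were alike. At an unadjusted p under 0.05 there were 2800 genes (21.4%), 1275 higher (9.75%) and 1525 lower (11.7%) with LPS. Both LPS-treated libraries lay above both unstimulated ones for 3537 genes (27.1%) and below them for 3758 (28.7%), 7295 without overlap in all (55.8%). An adjusted p under 0.1 was reached by 521 genes, 209 higher and 312 lower, and 838 genes had a log2 fold change beyond 1 in size. The median change over all genes was -0.016 and its median size 0.227. DESeq2 called 793 genes, 352 higher and 441 lower, and limma-voom called 0. The count moved with single libraries. It was 615 without unstimulated replicate 1 and 1 without unstimulated replicate 2 of the knockout label, 31 without LPS-treated knockout-labelled replicate 2, 47 without either unstimulated WT library, and 0 without LPS-treated knockout-labelled replicate 1 or either LPS-treated WT library.

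The 10 named genes with the smallest p divided into 3 higher and 7 lower with LPS, and each had an edgeR Benjamini-Hochberg adjusted p of 0.0502. Il18bp, the secreted decoy that binds and blocks IL-18 (chr7:102015074-102018232), had 94.4 and 94.6 CPM in LPS-treated and 53.2 and 42.4 CPM in unstimulated knockout-labelled libraries (log2 fold change 0.98, SE 0.125). Nid1, the basement membrane protein nidogen, had 22.4 and 20 CPM with LPS and 7.04 and 6.62 CPM without (1.63, SE 0.212). Cacnb4, a subunit of voltage-gated calcium channels, had 12.0 and 9.94 CPM with LPS and 3.04 and 1.78 CPM without (2.19, SE 0.279). In WT cells all 3 rose (2.52, 2.07 and 1.62). The knockout-labelled groups did not overlap for any of the 10 genes, but that was a condition of their choice. It held for 55.8% of all tested genes.

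Those lower with LPS were led by Clec4d, a C-type lectin receptor of myeloid cells (chr6:123262107-123275268), with 34.0 and 37.0 CPM in LPS-treated and 69.1 and 72.4 CPM in unstimulated knockout-labelled libraries (-0.99, SE 0.118). H2-M2, a nonclassical MHC class I gene, had 28.2 and 32.4 CPM with LPS and 70.9 and 79.4 CPM without (-1.31, SE 0.166). Unc119, a carrier of lipid-modified proteins, had 4.16 and 4.88 CPM with LPS and 12.2 and 18.7 CPM without (-1.78, SE 0.228). Unc119 fell in WT cells as well (-2.37). H2-M2 has close paralogs with which it can share reads, so its value is uncertain as a single gene. The others were Prkcb, a protein kinase C (-1.25), the adaptor Sla, which dampens antigen receptor signalling (-1.01), the endosomal sorting nexin Snx30 (-0.95) and the zinc finger factor Trerf1 (-0.92). In WT cells, Clec4d, Prkcb, Sla, Snx30 and Trerf1 also fell, while H2-M2 did not pass (-0.20, adjusted p = 0.353).

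**Figure D2:**
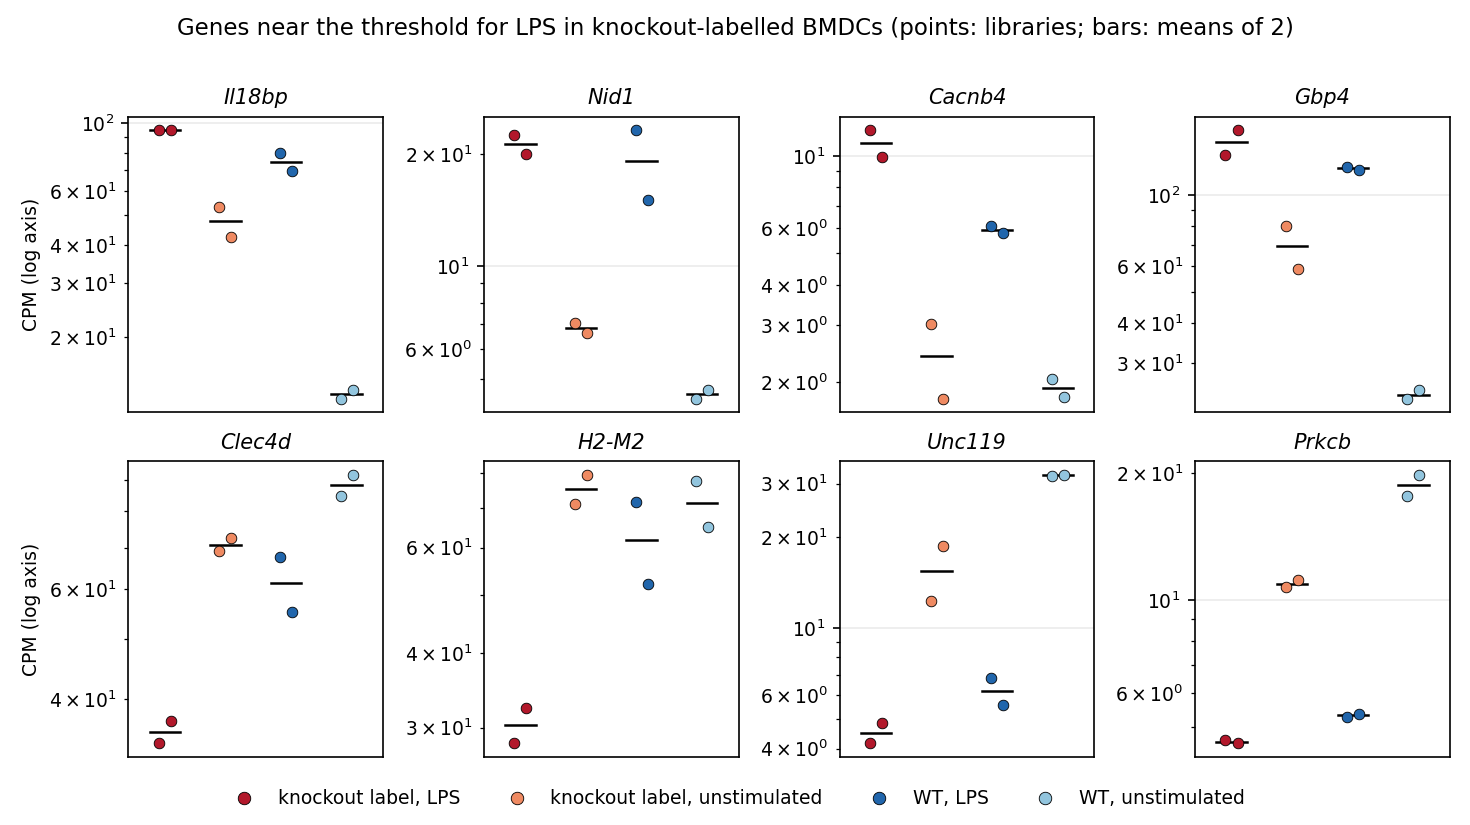
CPM of 8 genes near the threshold in each BMDC library (log axes); points are libraries, bars are means of 2, ordered from LPS-treated and unstimulated knockout label to LPS-treated and unstimulated WT. Il18bp, Nid1, Cacnb4 and Gbp4 (top row) are higher and Clec4d, H2-M2, Unc119 and Prkcb (bottom row) lower with LPS in the knockout label. Its groups do not overlap, which was a condition of choice for all but Gbp4.

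In WT cells the same stimulus changed 4910 genes (37.6%), 2609 higher (20%) and 2301 lower (17.6%), or 1689 higher and 3728 lower with scaling by library size alone, which moved the median of all genes to -0.228. The count was 2676 and 3226 without LPS-treated WT replicate 1 or 2 and 2915 without unstimulated WT replicate 2. The knockout-labelled libraries, which enter neither side of that contrast, showed smaller values in the same genes. The genes were chosen by their values in WT, so their WT medians may be too large in size. Part of the gap between the medians may come from that choice. The 2609 genes that rose in WT had a median log2 fold change of 0.22 in the knockout label (quartiles 0.079 and 0.398) and of 0.759 in WT. In the knockout label 820 of them (31.4%) were higher and 44 (1.69%) lower at an unadjusted p under 0.05. The 2301 that fell in WT had a median of -0.369 in the knockout label (quartiles -0.683 and -0.156) and of -0.872 in WT, and in the knockout label 956 of them (41.5%) were lower and 13 higher. Among the 958 genes that rose more than 2-fold in WT the medians were 0.376 in the knockout label and 1.744 in WT. Among the 963 that fell more than 2-fold they were -0.712 in the knockout label and -1.526 in WT. Across all 13072 genes the log2 fold changes in the knockout label and in WT, which share no library, had a Pearson correlation of 0.505 and a Spearman correlation of 0.558, with genes not being independent replicates.

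The genes of the receptor complex and its adaptors had log2 fold changes of -0.54 to 0.36 between the knockout-labelled groups. Of 21 tested genes for TLR4, its co-receptors and adaptors, 3 were higher and 0 lower at an unadjusted p under 0.05, and the median change was 0.06. Tlr4 had 12.6 and 17.3 CPM in LPS-treated and 15.7 and 18.3 CPM in unstimulated knockout-labelled libraries, which overlapped (-0.19, 95% interval -0.70 to 0.32, with the sign turned to 0.027 without LPS-treated knockout-labelled replicate 1). Cd14, the co-receptor that hands LPS to TLR4, had 130.3 and 90.4 CPM with LPS and 172 and 116 CPM without, against 84.7 and 96.2 CPM in LPS-treated and 27.2 and 43.8 CPM in unstimulated WT libraries. Traf6, the ubiquitin ligase downstream of MyD88, had 209 and 213 CPM with LPS and 185 and 166 CPM without (0.26, SE 0.0928). No member of this list or of any other passed in the knockout label. List counts stand against the shares over all tested genes, 9.75% higher and 11.7% lower at an unadjusted p under 0.05. Without overlap those shares were 27.1% above and 28.7% below. Some list counts lay near them, such as 2 of 18 cDC1 genes higher. Of the 38 list medians, 35 moved by over 1.5 times or changed sign under at least 1 of 19 alternatives, and 12 changed sign.

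Downstream of it, 24 genes of NF-kB subunits and feedback inhibitors had a median of 0.226, with 7 higher and 1 lower at an unadjusted p under 0.05. In WT 19 of them rose and 2 fell, with a median of 0.948. Nfkbia, the inhibitor IkB-alpha, had 484 and 459 CPM with LPS and 423 and 368 CPM without in the knockout label, with no overlap (0.25, SE 0.135). Dusp5, a phosphatase that switches off ERK, stood at 559 ± 6.79 CPM with LPS and 387 ± 16.2 CPM without (0.53, SE 0.0978, edgeR Benjamini-Hochberg adjusted p = 0.0678). Tnip3, an inhibitor of NF-kB signalling, stood at 147 ± 2.55 CPM with LPS and 96.3 ± 17.4 CPM without (0.61, adjusted p = 0.095).

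Inflammatory cytokines had no common direction between the knockout-labelled groups, with log2 fold changes of -0.86 to 1.07. Both LPS-treated libraries lay above both unstimulated ones for 4 of 21 and below them for 5, against 27.1% and 28.7% of all tested genes. Of 21 tested, 2 were higher and 1 lower at an unadjusted p under 0.05, the median was -0.085 and its sign changed under 2 of the alternatives. In WT 11 rose and 1 fell, with a median of 1.247. Il6 had 35.0 and 36.4 CPM in LPS-treated and 47.4 and 28.1 CPM in unstimulated knockout-labelled libraries, against 37.7 and 38.6 CPM in LPS-treated and 8.46 and 6.36 CPM in unstimulated WT libraries. Its log2 fold change was -0.08 in the knockout label (95% interval -0.60 to 0.45, 0.353 without unstimulated replicate 1) and 2.36 in WT. For Il1b the value was 0.11 (95% interval -0.30 to 0.52, -0.165 without unstimulated replicate 2), against 4.07 in WT. Tnf was low, with 8.56 and 9.63 CPM with LPS and 9.86 and 13.0 CPM without in the knockout label, and it did not pass in WT either (0.34).

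Il15, a cytokine that sustains NK cells and memory T cells, was the cytokine with the smallest p in the knockout label. It had 94.1 and 91.5 CPM with LPS and 58.4 and 47.7 CPM without (0.81, SE 0.135, edgeR Benjamini-Hochberg adjusted p = 0.0635). Il12b, the p40 subunit of IL-12 and IL-23, had 1276 and 1044 CPM with LPS and 869.6 and 766 CPM without (0.50, 95% interval -0.02 to 1.03). Both cytokines were higher in each LPS-treated library than in either unstimulated one. Tgfb1, a suppressive cytokine, lay the other way, with 177 and 198 CPM with LPS and 262 and 258 CPM without (-0.47, SE 0.102).

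Among 19 chemokine ligands 3 were higher and 3 lower at an unadjusted p under 0.05, with a median of 0.216 whose sign changed under 3 alternatives. Cx3cl1, the membrane-bound chemokine fractalkine, had 240.2 and 238 CPM with LPS and 177 and 174 CPM without (0.45, SE 0.0855). Ccl9, a chemokine that attracts myeloid cells, had 13.8 and 21.4 CPM with LPS and 44.8 and 82.6 CPM without (-1.85, SE 0.383). Neither pair of groups overlapped, and the directions in WT were the same (0.54 and -1.17). Ccl5, which draws T cells, stood at 1460.0 ± 3.96 CPM with LPS and 1122 ± 239 CPM without (0.38, SE 0.156).

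Several inflammatory effectors lay lower with LPS in the knockout label. Of 24 tested effector and metabolic enzyme genes, 12 were lower and 3 higher with LPS in the knockout label at an unadjusted p under 0.05, with a median of -0.48. In WT 17 rose and 2 fell, with a median of 2.036, and of those 17 there were 7 lower and 3 higher in the knockout label. Saa3, an acute-phase protein (chr7:46711998-46719615), had 39.6 and 90.6 CPM in LPS-treated and 720.5 and 319 CPM in unstimulated knockout-labelled libraries, against 92.9 and 85.8 CPM in LPS-treated and 0.940 and 0.281 CPM in unstimulated WT libraries. The LPS-treated libraries of both labels were close to each other, and the libraries labelled unstimulated knockout stood above all others. The log2 fold change was -3.00 in the knockout label (SE 0.513, edgeR Benjamini-Hochberg adjusted p = 0.0705) and 7.17 in WT.

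Nos2, the inducible nitric oxide synthase (chr11:78920787-78960226), was also highest in the libraries labelled unstimulated knockout. It had 53.9 and 47.7 CPM with LPS and 154 and 83.7 CPM without in the knockout label, against 24.4 and 24.6 CPM with LPS and 0.553 and 0.281 CPM without in WT (-1.22, SE 0.262, and 5.85 in WT). Arg1, the arginase that competes with Nos2 for arginine (chr10:24915207-24927470), had 0.238 and 0.75 CPM with LPS and 9.92 and 6.42 CPM without in the knockout label, against 0.475 and 1.16 CPM with LPS and 0.387 and 0.731 CPM without in WT. The 2 LPS-treated knockout-labelled libraries held 4 to 12 Arg1 counts each, so the value of -4.04 (SE 0.569, edgeR Benjamini-Hochberg adjusted p = 0.0502) rests on few reads. Fpr1, a receptor for bacterial formyl peptides, had 1.19 and 0.75 CPM with LPS and 6.61 and 4.84 CPM without (-2.55, SE 0.465). For Saa3, Nos2, Arg1 and Fpr1 both unstimulated knockout-labelled libraries lay above both LPS-treated ones. Acod1, which makes itaconate, did not follow them, with 217 and 231 CPM with LPS and overlapping levels of 224 and 155 CPM without (0.24, 95% interval -0.25 to 0.74).

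Members with the opposite sign were Ido1 and, in the list of checkpoint and suppressive genes, Ido2, both enzymes that degrade tryptophan. Ido1 had 64.2 and 53.2 CPM with LPS and 19.1 and 21.3 CPM without in the knockout label (1.54, SE 0.288, edgeR Benjamini-Hochberg adjusted p = 0.075). Ido2 had 114 and 92.8 CPM with LPS and 43.6 and 35.0 CPM without (1.40, SE 0.221, adjusted p = 0.0635). Neither overlapped between the groups, and both rose in WT (1.30 and 1.10). Their levels in the libraries labelled unstimulated knockout lay close to those of unstimulated WT cells, 25.4 and 12.4 CPM for Ido1 and 41.7 and 26.3 CPM for Ido2.

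In the knockout label, interferon-stimulated genes were already high without LPS and lay somewhat higher with it. Of 41 tested type I interferon response genes, 14 were higher and 0 lower at an unadjusted p under 0.05, both LPS-treated libraries lay above both unstimulated ones for 31, and the median was 0.483, against 2.982 in WT, where 40 rose. Over the alternatives the median in the knockout label ranged from 0.248 to 0.841. Of 30 genes of the interferon-gamma response, 12 were higher and 0 lower, with a median of 0.614, against 2.361 in WT, where 29 rose and 1 fell, and that median ranged from 0.327 to 0.985 in the knockout label. Isg15, a ubiquitin-like interferon effector (chr4:156199424-156200818), had 277 and 282 CPM in LPS-treated and 275 and 157 CPM in unstimulated knockout-labelled libraries, against 437 and 347 CPM in LPS-treated and 12.5 and 18.7 CPM in unstimulated WT libraries. Both unstimulated knockout-labelled libraries lay far above the unstimulated WT libraries, and the higher of them lay just below the LPS-treated ones. The log2 fold change was 0.37 in the knockout label (95% interval -0.28 to 1.02) and 4.65 in WT.

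The promoters of 3 genes with different orders of levels are shown for the motifs that interferon and NF-kB factors are known to bind, from RefSeq's windows on GRCm38.p6, 250 bases before to 50 after the start and all on the minus strand. Capitals mark matches, on either strand, to GAAA, any 2 bases and GAAA, the core of the interferon-stimulated response element, and to GGGA, any 2 bases and TTCC, an NF-kB-type site.
Isg15 (chr4:156200769-156201068): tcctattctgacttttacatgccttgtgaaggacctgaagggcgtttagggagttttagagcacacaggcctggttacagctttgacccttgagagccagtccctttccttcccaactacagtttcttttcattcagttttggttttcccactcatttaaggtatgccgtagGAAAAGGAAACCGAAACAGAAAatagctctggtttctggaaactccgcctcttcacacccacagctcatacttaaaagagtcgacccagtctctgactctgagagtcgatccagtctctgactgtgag
Cxcl10 (chr5:92348840-92349139): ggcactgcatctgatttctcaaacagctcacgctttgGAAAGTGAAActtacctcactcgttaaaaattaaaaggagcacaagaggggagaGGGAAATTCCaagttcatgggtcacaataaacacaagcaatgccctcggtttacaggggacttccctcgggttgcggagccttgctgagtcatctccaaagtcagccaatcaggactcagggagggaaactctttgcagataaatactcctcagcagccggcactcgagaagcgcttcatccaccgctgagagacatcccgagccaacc
Saa3 (chr7:46715627-46715926): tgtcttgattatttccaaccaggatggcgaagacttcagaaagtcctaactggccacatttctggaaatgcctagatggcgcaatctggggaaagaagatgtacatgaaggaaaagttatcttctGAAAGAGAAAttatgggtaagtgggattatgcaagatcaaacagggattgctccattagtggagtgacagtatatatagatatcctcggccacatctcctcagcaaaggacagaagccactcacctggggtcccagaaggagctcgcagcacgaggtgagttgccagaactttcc
The Isg15 window held 3 overlapping matches to the first motif, and the Cxcl10 window held 1 match to each. The window of Irf7, another interferon gene whose sequence is not printed, held 0 matches to either motif. The Saa3 window, from the gene that was lower with LPS in the knockout label, held 1 match to the first motif. This window lies inside the gene span given above, while those of Isg15 and Cxcl10 lie at the end of their spans. Only the first window listed for each gene was used. The first motif was found in 15 of the 30 type I interferon list genes with a window (50%), in 336 of 10301 windows of tested genes (3.26%) and in 943 of all 27025 windows (3.49%). The NF-kB-type motif was found in 1 of those 30 (3.33%), in 158 of the 10301 (1.53%) and in 387 of all windows (1.43%). These matches describe the letters in the windows only.

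Cxcl10, an interferon-induced chemokine for T cells (chr5:92346638-92348889), had 55.6 and 75.5 CPM with LPS and 47.2 and 29.8 CPM without in the knockout label, against 109 and 71.5 CPM with LPS and 2.38 and 6.02 CPM without in WT. Irf7, the factor that amplifies type I interferon, had 447 and 466 CPM with LPS and 386 and 246 CPM without, against 629.9 and 525 CPM with LPS and 19.8 and 29.2 CPM without in WT. The log2 fold changes in the knockout label were 0.77 (95% interval -0.14 to 1.67) for Cxcl10 and 0.53 (95% interval -0.02 to 1.08) for Irf7, and in both genes the groups did not overlap. Parp9, an interferon-induced ADP-ribosyltransferase, had the smallest p of the type I list, at 214 ± 0.743 CPM with LPS and 135 ± 29.4 CPM without (0.66, SE 0.146, adjusted p = 0.0823).

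In the interferon-gamma list the genes with the smallest p were GTPases that act against intracellular pathogens. Gbp4, a guanylate-binding protein (chr5:105115767-105139586), had 133 and 159 CPM with LPS and 80.2 and 58.9 CPM without in the knockout label (1.07, SE 0.149, edgeR Benjamini-Hochberg adjusted p = 0.0502). Tgtp1, an immunity-related GTPase, had 46.5 and 54.4 CPM with LPS and 26.8 and 17.2 CPM without (1.2, SE 0.192, adjusted p = 0.0612). Both were clear of overlap, and both have close paralogs that can share their reads. Of 19 IRF and STAT genes 7 were higher and 0 lower at an unadjusted p under 0.05. Irf4, a factor of cDC2 cells and DC migration, was one of them, with 89.2 and 77.5 CPM with LPS and 61.3 and 55.7 CPM without (0.51, SE 0.116), and it did not pass in WT (-0.04).

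Maturation genes divided by member. The migratory program of mature DCs had 11 of 30 genes higher and 0 lower at an unadjusted p under 0.05, with a median of 0.279 against 0.914 in WT. Ccr7, the receptor that guides DCs to lymph nodes, had 5917 and 6861 CPM with LPS and 5708 and 4817 CPM without in the knockout label, groups that lay apart but with an interval that included 0 (0.28, 95% interval -0.10 to 0.66). Birc2, an inhibitor of apoptosis that acts in NF-kB signalling, had 572 and 449 CPM with LPS and 309 and 307 CPM without (0.73, SE 0.149). Tbc1d4, a regulator of glucose transporter traffic, had 1543 and 1290.0 CPM with LPS and 891 and 835 CPM without (0.72, SE 0.148). The LPS-treated libraries were the higher ones for all 3.

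Of 13 costimulatory genes 5 were higher and 1 lower, and their median of -0.033 changed sign under 3 alternatives. Cd80, a ligand of CD28, had 192 and 146 CPM with LPS and 76.6 and 55.7 CPM without in the knockout label, against 92.1 and 92.8 CPM with LPS and 15.1 and 27.4 CPM without in WT (1.35 in the knockout label, SE 0.278, edgeR Benjamini-Hochberg adjusted p = 0.0864). Both LPS-treated knockout-labelled libraries lay above all others, and the unstimulated ones lay between the WT groups. Cd86, the other CD28 ligand, stood at 251 ± 32.6 CPM with LPS and 183 ± 26.9 CPM without (0.46, SE 0.127). Timd4, a receptor for dying cells, had 23.6 and 16.0 CPM with LPS and 7.64 and 4.79 CPM without (1.67, SE 0.362). Tnfsf4, the OX40 ligand, had 141 and 109.9 CPM with LPS and 73.8 and 52.6 CPM without (0.99, SE 0.184). Cd40, which receives T cell help, had overlapping levels of 193 and 179 CPM with LPS and 214 and 188 CPM without (-0.11, 95% interval -0.44 to 0.22).

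Checkpoint and suppressive genes included more lower than higher members, 7 against 3 of 20, with a median of -0.115. Cd274, which encodes PD-L1, had 698 and 874 CPM with LPS and 785 and 593 CPM without, against 926 and 803 CPM with LPS and 265 and 171 CPM without in WT. The knockout-labelled groups overlapped (0.19, 95% interval -0.34 to 0.72).

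Antigen presentation genes showed small values. The 21 MHC class I genes had a median of 0.228, 4 higher and 1 lower at an unadjusted p under 0.05, with B2m, the shared light chain, at 4354 ± 436 CPM with LPS and 3426 ± 448 CPM without (0.35, SE 0.146). Calr, the chaperone calreticulin of the loading complex, was the lower member, at 418 ± 31.4 CPM with LPS and 598 ± 102 CPM without (-0.52, SE 0.143). The 16 MHC class II genes had a median of -0.187, 1 higher and 5 lower. Marchf1, a ubiquitin ligase that removes MHC class II and CD86 from the surface, had 30.9 and 42.3 CPM with LPS and 72.5 and 74.1 CPM without (-1.0, SE 0.166, edgeR Benjamini-Hochberg adjusted p = 0.0635). H2-DMb1, which helps load peptides, had 80.5 and 89.8 CPM with LPS and 122 and 185 CPM without (-0.85, SE 0.223). Both lay lower in each LPS-treated library, and both fell in WT (-0.75 and -1.06).

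**Figure D3:**
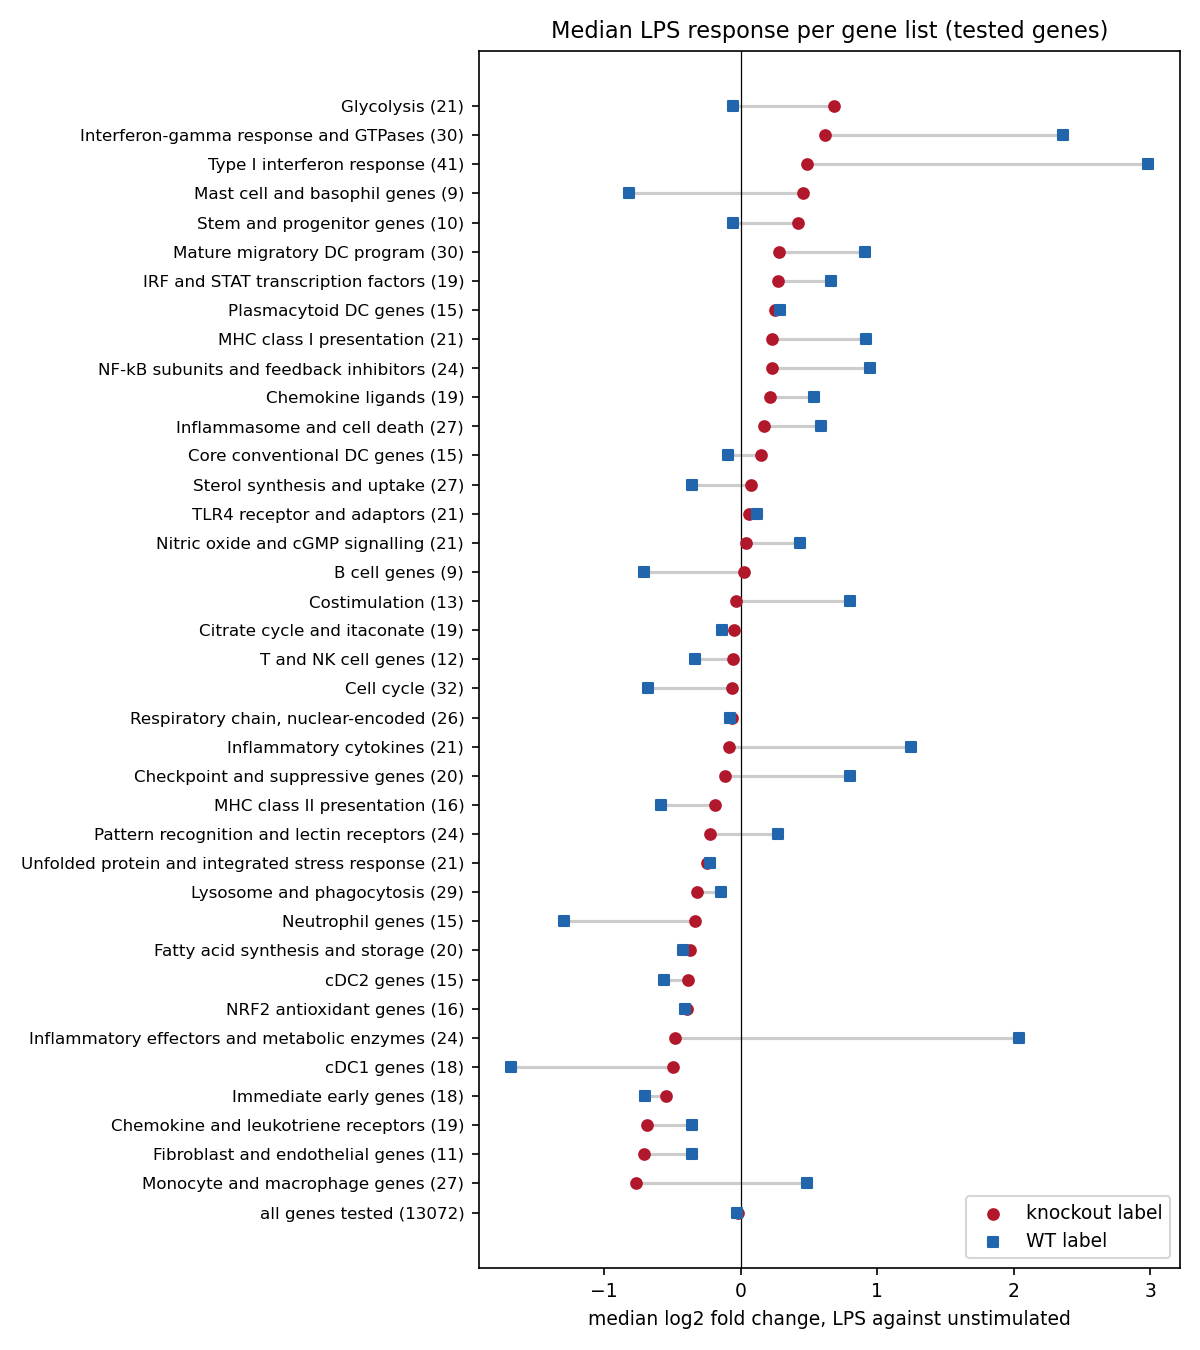
Median log2 fold change, LPS against unstimulated, of the tested genes of 38 lists (number tested in brackets) in the knockout label (circles) and in WT (squares), with all 13072 genes at the bottom. The type I interferon list lies at 0.483 in the knockout label and 2.982 in WT, and the effector list at -0.48 and 2.036.

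In the lists of DC subset genes more members lay lower than higher with LPS in the knockout label. Of 18 cDC1 genes 6 were lower and 2 higher at an unadjusted p under 0.05, with a median of -0.492 against -1.684 in WT, where 11 fell and 4 rose. Here, as in all such bulk libraries, fewer cells of a type and less RNA per cell cannot be told apart. Clec9a, a receptor by which cDC1 cells recognise debris of dead cells, had 5.95 and 7.81 CPM with LPS and 11.9 and 13.5 CPM without in the knockout label, against 7.60 and 11.3 CPM with LPS and 38.9 and 48.5 CPM without in WT (-0.89, SE 0.229). Tlr3, a sensor of double-stranded RNA, had 4.46 and 6.88 CPM with LPS and 13.9 and 19.0 CPM without (-1.54, SE 0.282, edgeR Benjamini-Hochberg adjusted p = 0.0703). Snx22, a sorting nexin of the cDC1 signature, had 2.50 and 4.25 CPM with LPS and 9.05 and 15.2 CPM without (-1.85, SE 0.336). In these 3 genes the groups of the knockout label did not overlap, and the unstimulated libraries of that label lay between its LPS-treated libraries and unstimulated WT cells. Cd8a, a surface marker of cDC1 cells in lymphoid organs, lay the other way, with 8.32 and 7.19 CPM with LPS and 3.09 and 3.90 CPM without (1.15, SE 0.280).

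Of 15 cDC2 genes 5 were lower and 2 higher, with a median of -0.386, and Clec10a, a lectin of these cells, had 1.07 and 0.625 CPM with LPS and 5.80 and 11.9 CPM without (-3.37, SE 0.683). The LPS-treated libraries held only 10 to 18 Clec10a counts. Of 15 core conventional DC genes 5 were higher and 2 lower, with a median of 0.151. Dpp4, a surface peptidase, had 302 and 282 CPM with LPS and 188 and 172 CPM without (0.70, SE 0.144), and Ckb, a creatine kinase, had 46.3 and 53.9 CPM with LPS and 70.5 and 132 CPM without (-1.01, SE 0.349). Zbtb46 differed by 0.31 (95% interval 0.02 to 0.60) and Itgax, which encodes CD11c, by -0.29 (95% interval -0.62 to 0.04).

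The list of monocyte and macrophage genes stood at a median of -0.77 in the knockout label, against 0.483 in WT. Over the alternatives that median ranged from -1.494 to -0.337, and it was the lowest of the 38 lists under 16 of 19. Of 27 tested, 8 were lower and 1 higher at an unadjusted p under 0.05, and both LPS-treated libraries lay below both unstimulated ones for 16 of them. Csf1r, the receptor for the macrophage growth factor CSF1, had 279 and 374 CPM with LPS and 569.5 and 603 CPM without (-0.84, SE 0.191, edgeR Benjamini-Hochberg adjusted p = 0.0883). Vcan, a matrix proteoglycan of monocytes, had 6.48 and 9.38 CPM with LPS and 20.9 and 13.4 CPM without (-1.11, SE 0.265). The member that lay higher was Spic, a transcription factor of iron-recycling macrophages, with 109 and 99.1 CPM with LPS and 66.4 and 68.1 CPM without (0.63, SE 0.0918, adjusted p = 0.052). None of the 3 overlapped between the groups. The summed level of 7 macrophage markers was 583 and 985 CPM in LPS-treated and 1340 and 1250 CPM in unstimulated knockout-labelled libraries, none of the 7 at 0, against 1050 to 1400 CPM in the WT libraries. The sum of 6 DC markers was 13500 and 14100 CPM with LPS and 13400 and 15500 CPM without. The part of other cells in the differences between the knockout-labelled groups was not tested.

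Receptors and immediate responses were lower in many members. Of 19 chemokine and leukotriene receptors 9 were lower and 4 higher, with a median of -0.687. Cxcr5, the receptor for the B cell follicle chemokine, was one of the higher ones, with 57.4 and 42.8 CPM with LPS and 32.2 and 25.2 CPM without (0.80, SE 0.168). Of 24 pattern recognition receptors 6 were lower and 3 higher. Nod2, a cytosolic sensor of bacterial muramyl dipeptide, had 129 and 120.4 CPM with LPS and 74.5 and 65.8 CPM without (0.83, SE 0.130, edgeR Benjamini-Hochberg adjusted p = 0.0612). Both genes rose in WT (2.68 and 1.36), and neither overlapped between the knockout-labelled groups.

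Of 18 immediate early genes 9 were lower and 3 higher, with a median of -0.546 against -0.703 in WT. Egr1, a transcription factor induced within minutes by growth and stress signals, had 16.9 and 13.6 CPM with LPS and 58.2 and 134 CPM without (-2.66, SE 0.491), against 13.4 and 25.8 CPM with LPS and 73.3 and 114 CPM without in WT. Here the libraries labelled unstimulated knockout were at the level of unstimulated WT cells. Myc, a driver of growth, had 10.1 and 7.81 CPM with LPS and 17.4 and 22.4 CPM without (-1.15, SE 0.266). Klf6, a zinc finger factor of inflammatory myeloid cells, lay higher, with 1064 and 1085 CPM with LPS and 855 and 747 CPM without (0.42, SE 0.110).

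Lysosome and phagocytosis genes were lower in 9 and higher in 2 of 29 cases, with a median of -0.322. Hexa, a subunit of lysosomal hexosaminidase, stood at 135 ± 15.1 CPM with LPS and at 223 ± 62.5 CPM without (-0.73, SE 0.181). Of 16 genes in a list of NRF2 and antioxidant genes, which includes Nfe2l2 (NRF2 itself) and Keap1, 7 were lower and 1 higher, with a median of -0.396. Sod2, the mitochondrial superoxide dismutase, had 71.0 and 98.6 CPM with LPS and 186 and 129 CPM without in the knockout label, against 154 and 125 CPM with LPS and 58.7 and 69.3 CPM without in WT. It rose in WT (1.13) and was lower without overlap in the knockout label (-0.89, SE 0.220).

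Most glycolysis genes lay higher with LPS in the knockout label, while their median in WT was near 0. Of 21 tested genes 15 were higher and 1 lower at an unadjusted p under 0.05, with a median of 0.681. At an adjusted p under 0.05, 3 rose and 4 fell in WT, with a median of -0.059, and 0 passed in the knockout label. Pgk1, a phosphoglycerate kinase (chrX:106187100-106203699), had 1113 and 602 CPM in LPS-treated and 442 and 297 CPM in unstimulated knockout-labelled libraries, against 235 and 257 CPM in LPS-treated and 254 and 261 CPM in unstimulated WT libraries. Eno1, an enolase, had 2112 and 1279 CPM with LPS and 1014 and 727 CPM without, against 582 and 625 CPM with LPS and 549.7 and 632 CPM without in WT. LPS-treated replicate 1 of the knockout label was the highest library for both, and each knockout-labelled library lay above every WT library. The log2 fold changes were 1.21 (SE 0.294, edgeR Benjamini-Hochberg adjusted p = 0.101) for Pgk1 and 0.96 (SE 0.245, adjusted p = 0.102) for Eno1. Over the alternatives the median of the list ranged from 0.329 to 0.964. In the interaction neither gene passed (Pgk1 1.28, Eno1 0.93, adjusted p = 0.134 and 0.17).

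**Figure D4:**
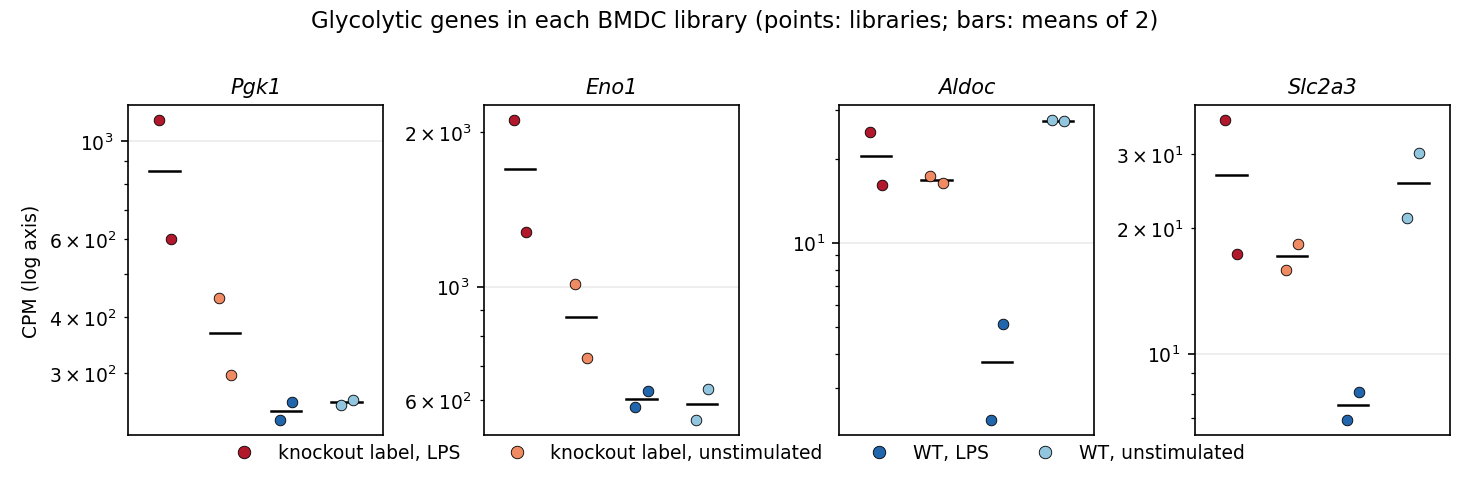
CPM of the glycolytic genes Pgk1, Eno1 and Aldoc and the glucose transporter Slc2a3 in each BMDC library (log axes); points are libraries, bars are means of 2, ordered from LPS-treated and unstimulated knockout label to LPS-treated and unstimulated WT. LPS-treated knockout-labelled replicate 1 is the highest of its group for all 4 genes, and Aldoc and Slc2a3 are lowest in LPS-treated WT libraries.

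Other metabolic lists gave small or mixed values. The 26 nuclear-encoded respiratory chain genes had a median of -0.067 with 0 higher and 2 lower, and the 19 citrate cycle genes one of -0.05 with 1 each way. Of 27 sterol genes 5 were higher and 2 lower, with a median of 0.074 whose sign changed under 3 alternatives. Idi1, an isomerase of the sterol pathway, had 117 and 94.6 CPM with LPS and 50.7 and 73.0 CPM without (0.78, SE 0.173), and Abca1, the cholesterol exporter, had 32.5 and 68.8 CPM with LPS and 187 and 97.8 CPM without (-1.49, SE 0.582). Both pairs of groups lay apart, in opposite directions. Of 20 genes of fatty acid synthesis and storage 5 were lower and 1 higher, among them Pparg, the regulator of lipid storage, with 0.416 and 1.38 CPM with LPS and 2.60 and 7.16 CPM without (-2.46, SE 0.618). The 32 cell cycle genes had 0 higher and 3 lower and a median of -0.063 whose sign changed under 2 alternatives.

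Nitric oxide and cGMP signalling, the pathway of the gene named by the label, had 4 genes higher and 3 lower of 21 at an unadjusted p under 0.05, and a median of 0.038 whose sign changed under 3 alternatives. Npr1, the guanylyl cyclase receptor of natriuretic peptides, had 165 and 129.9 CPM with LPS and 77.8 and 59.1 CPM without in the knockout label, against 67.6 and 73.0 CPM with LPS and 31.7 and 16.6 CPM without in WT (1.11, SE 0.283). Ass1, which renews arginine for Nos2, had 612 and 665 CPM with LPS and 532 and 438 CPM without (0.40, SE 0.146). Abcc5, an exporter of cyclic nucleotides, had 25.3 and 32.9 CPM with LPS and 61.7 and 55.1 CPM without (-1.0, SE 0.266). Npr1 and Ass1 were higher and Abcc5 and Nos2 lower in both LPS-treated libraries, and Npr1 and Ass1 rose in WT while Abcc5 did not pass there (0.07). Pde5a differed by -0.48 (95% interval -1.6 to 0.64).

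Whether the LPS response differed between the genotype labels was tested as an interaction, the log2 fold change in the knockout label minus that in WT. It passed for 585 genes (4.48%), 74 positive (0.566%) and 511 negative (3.91%). The count was 58 without LPS-treated and 195 without unstimulated knockout-labelled replicate 1, 1076 without unstimulated knockout-labelled replicate 2, 137 and 274 without LPS-treated WT replicate 1 or 2, and 222 without unstimulated WT replicate 2. A negative value is that of a gene whose log2 fold change was smaller, or further below 0, in the knockout label than in WT. Il1b had -3.97 (SE 0.266, edgeR Benjamini-Hochberg adjusted p = 0.00291), Isg15 -4.28 (SE 0.417, adjusted p = 0.00668) and Irf7 -4.03 (SE 0.351, adjusted p = 0.00652). Of the type I interferon list 35 of 41 genes were negative and 0 positive, of the interferon-gamma list 15 of 30, and of the effector list 17 of 24. Positive values were those of Aldoc, an aldolase, at 3.17 (SE 0.449), Slc2a3, a glucose transporter, at 2.41, and Mthfd1l, a mitochondrial folate enzyme, at 2.29. Aldoc had 24.9 and 16.1 CPM with LPS and 17.3 and 16.4 CPM without in the knockout label, against 2.32 and 5.12 CPM with LPS and 27.5 and 27.4 CPM without in WT. Its change of 0.28 in the knockout label was -0.068 without LPS-treated knockout-labelled replicate 1. The interactions of Aldoc, Slc2a3 and Mthfd1l did not pass without that library, nor without unstimulated knockout-labelled replicate 1.

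The interferon motif lay in the promoter window of 56 of the 394 genes with a negative interaction that have a window (14.2%) and of 1 of the 55 with a positive one (1.82%), against 3.26% of tested genes. The NF-kB-type motif lay in 9 (2.28%) and 1 (1.82%) of them, against 1.53%. Of the 511 genes with a negative interaction, 504 rose with LPS in WT. The motif shares among all genes that rose in WT were not computed. A link of either motif to the genotype label, apart from the response to LPS, was therefore not tested. Between the LPS-treated libraries of the knockout label and of WT, 0 genes (0%) passed in edgeR (smallest Benjamini-Hochberg adjusted p = 0.166). In that comparison 1330 genes (10.2%) had an unadjusted p under 0.05, and DESeq2 called 150 and limma-voom 0. Without LPS-treated knockout-labelled replicate 2 the count was 65.

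**Figure D5:**
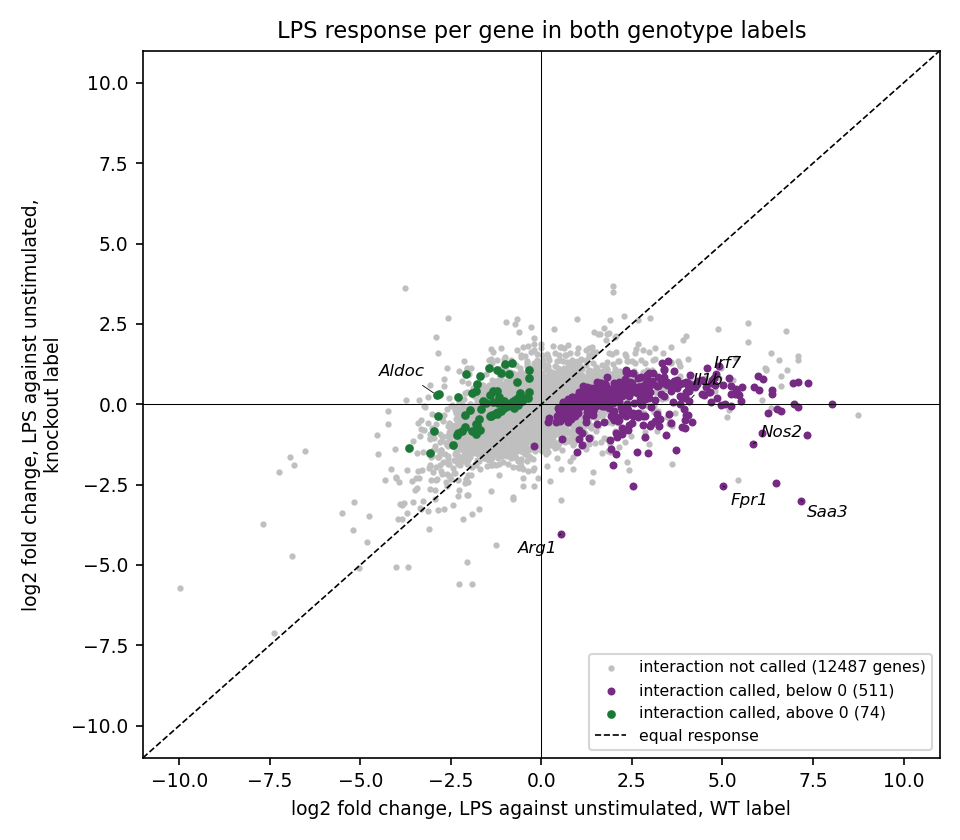
Log2 fold change of LPS against unstimulated for each of the 13072 tested genes, in WT (x axis) and in the knockout label (y axis); coloured points are the 511 negative and 74 positive interaction calls, and the dashed line marks equal responses. The negative calls lie below the dashed line, 356 of them above 0 and 155 at or below 0 on the y axis, with Saa3 at -3.00 in the knockout label and 7.17 in WT.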

How the data were processed

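RNA from 8 mouse BMDC libraries, 2 per group, was analysed. The deposited table holds unnormalised read counts for each gene symbol, which the authors made from total RNA with a TruSeq kit, per the labels. Per the submitters' processing notes, the tools were featureCounts 2.0.1, HISAT2 2.2.1 and fastp 0.12.4 and the build mm10, with no role stated. The annotation and strand setting were not given in the sources used here, so overlapping genes cannot be told apart, and the labels' extraction text speaks of another tissue. Of the 184 genes that the rule below took, 23 overlap another tested gene, among them B2m, Cd274, Cxcr5, Flt3, Hexa, Ifit1, Il1b, Parp9, Sla, Snx22 and Zbtb46. Positions come from RefSeq's GRCm38.p6, which matched 31833 symbols.

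All columns were mapped to samples by name. In R 4.3.3, genes were kept by filterByExpr (minimum count 10, 99.92 to 99.95% of counts), scaled by TMM and tested in edgeR 4.0.16 with glmQLFit (robust) and glmQLFTest in 1 fit with a mean per group, with Benjamini-Hochberg adjustment over all genes. The biological coefficient of variation was 0.138, and replicates differed by more than counting noise (chi-square per degree of freedom 14.3 to 24.4). The steps were tested on simulated counts. DESeq2 1.42.0, limma-voom (limma 3.58.1), other scalings, filters, a replicate block and fits without each library were alternatives. The comparison and the 38 gene lists were chosen with earlier results of these data known. With fewer than 5 calls, the rule for named genes took the 10 with the smallest p. For these 10 it asked that LPS-treated and unstimulated knockout-labelled libraries did not overlap and that average log2 CPM was 2 or more. It left out predicted genes, pseudogenes and ribosomal protein genes. It added the 8 largest interaction values each way, the 2 members of each list with the smallest p in each direction, and a panel of LPS response genes. Some genes that it took are not reported here.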

Additional observations from a re-analysis of the deposited data

Results flagged for a closer look

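The response to LPS differed between the genotype labels, by the interaction test itself, for 585 genes, and the named genes among them are given here as log2 differences (knockout label minus WT). The largest negative values were Saa3 at -10.17, Fpr1 at -7.57, Nos2 at -7.07, the formyl peptide receptor Fpr2 at -7.01, Slfn4 at -6.98, Olfr56 at -6.81, Ifi206 at -6.66, Slfn1 at -6.38 and Gstt1 at -6.29. In unstimulated WT libraries Fpr1 had 1 to 2 counts, Fpr2 0 to 5, Olfr56 0 to 2, Slfn4 0 to 7, Gstt1 1 to 5, Saa3 5 to 17, Nos2 5 to 10 and Slfn1 6 to 10, so the sizes of these values depend on the prior count. Slfn, Ifi200 and formyl peptide receptor genes have close paralogs, and single members are uncertain.

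Interferon-stimulated genes followed, with Ifit1 at -4.65, Isg15 at -4.28, Irf7 at -4.03, Tgtp1 at -3.70, Cxcl10 at -3.66, Gbp4 at -1.26 and Parp9 at -0.97. Inflammatory genes were Il1b at -3.97, Acod1 at -3.15, Il6 at -2.44, Socs3, a feedback inhibitor of cytokine receptors, at -2.28, Sod2 at -2.02, Il18bp at -1.54 and Ccl5 at -1.03, and the cell death genes Bcl2l11 and Bcl2l1 were at -1.15 and -0.66. Ass1 was at -0.97, and Arg1 at -4.58 with 16 counts in both LPS-treated knockout-labelled libraries together. Among myeloid and DC genes, Vcan was at -3.01, Tnfsf4 at -2.09, Cxcr5 at -1.88, Cd274 at -1.80, H2-M2 at -1.11, Cd40 at -0.91 and Zbtb46 at -0.83.

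Positive values were those of Aldoc at 3.17, Zfp395 at 2.51, Slc2a3 at 2.41, Mthfd1l at 2.29, the lysophospholipid receptor Gpr34 at 2.29, the glycogen phosphatase Epm2a at 2.26, Impa2, an inositol monophosphatase, at 2.22 and the granule protein lactoferrin Ltf at 2.16. The calls of these 42 genes depended on single libraries, most of all on LPS-treated knockout-labelled replicate 1. Some negative values held in every fit that left out 1 library, but no positive one did. Every positive value named here lost its call without LPS-treated knockout-labelled replicate 1, and also without unstimulated knockout-labelled replicate 1.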

How the results depend on the processing

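For LPS in the knockout label, 0 genes passed, and DESeq2 size factors gave 22, upper-quartile scaling 21, library size alone 24, no filter on low counts 587, the DESeq2 test 793 and, added after seeing the data, 1 symbol of each set with identical counts 20. Leaving out 1 library gave 0 to 615. A filter of 10 CPM, limma-voom and the 4 libraries alone gave 0, and so did edgeR without a robust prior, which was also not a planned setting. The replicate block gave 321 genes, 147 higher and 174 lower. The labels share numbers between groups but do not tie them to an animal or culture, and same-numbered deviations of the knockout-labelled groups correlated at -0.076. The interaction (585 genes) gave 948 without a filter, 1075 with the DESeq2 test, 516 with the replicate block, and 58 to 1076 when 1 library was left out. Leaving out 1 library gave 2676 to 4831 genes for LPS in WT and 593 to 2717 for the knockout label without stimulation. Between LPS-treated libraries, no filter gave 56 genes, the DESeq2 test 150, the replicate block 2, and leaving out 1 library 0 to 65. Leaving out 1 library turned the sign for Aldoc (-0.068 to 0.566, negative without LPS-treated knockout-labelled replicate 1), Il1b (-0.165 to 0.447, negative without unstimulated knockout-labelled replicate 2), Il6 (-0.407 to 0.353, positive without unstimulated knockout-labelled replicate 1) and Tlr4 (-0.437 to 0.027, positive without LPS-treated knockout-labelled replicate 1), and for no other of the 93 genes recomputed for that comparison. The causes were not tested. With 2 libraries per group, low counts such as those of Arg1, Clec10a and Pparg set what could be measured.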

Other observations

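Genes of survival and cell death included higher and lower members, the lower ones near the share over all tested genes (11.7%). Of 27 tested genes of the inflammasome and cell death, 8 were higher and 3 lower with LPS in the knockout label at an unadjusted p under 0.05, with a median log2 fold change of 0.168. Bcl2l11, which encodes the death-promoting protein BIM, had 582 and 598 CPM with LPS and 445 and 322 CPM without (0.62, SE 0.146). Bcl2a1a, a survival factor with close paralogs, had 94.0 and 84.6 CPM with LPS and 63.2 and 54.0 CPM without (0.61, SE 0.136). Bcl2l1, which encodes the survival factor BCL-XL, lay lower, with 38.3 and 40.2 CPM with LPS and 50.1 and 56.4 CPM without (-0.44, SE 0.0977). None of the 3 overlapped between the groups, and none passed.

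Of 21 genes of the unfolded protein and integrated stress responses 4 were lower and 2 higher, with a median of -0.25. Pdia6, a disulfide isomerase of the endoplasmic reticulum, stood at 87.3 ± 3.39 CPM with LPS and 133 ± 22.6 CPM without (-0.61, SE 0.164), and Dnajb9, a co-chaperone there, at 38.6 ± 0.632 CPM with LPS and 32.0 ± 1.16 CPM without (0.27, SE 0.0988). In the list of fibroblast and endothelial genes, Kdr, a receptor for vascular endothelial growth factor, had 132 and 107 CPM with LPS and 54.2 and 37.5 CPM without (1.38, SE 0.260), while Vwf, von Willebrand factor, had 8.21 and 8.88 CPM with LPS and 14.7 and 24.1 CPM without (-1.19, SE 0.253). The endothelial marker Cdh5 reached at most 0.188 CPM in these 4 libraries, but other markers of fibroblasts and endothelium were higher. Pecam1 had 17.9 to 22.3 CPM with LPS and 21.3 to 26.2 CPM without. Col1a1 had 7.55 to 11.5 CPM with LPS and 12.2 to 18.4 CPM without. Kit, the receptor for stem cell factor, had 622 and 616 CPM with LPS and 432 and 407 CPM without (0.56, SE 0.140).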
